A study of Mus musculus with 15 samples.

Results

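The genes described here are 7 members of the Fc receptor and ITAM adaptor system, out of 22350 protein-coding genes in the annotation. They were chosen by name: the IgG receptors Fcgr1, Fcgr2b, Fcgr3 and Fcgr4, and the transmembrane adaptors Fcer1g, Tyrobp and Hcst. Each gene start was measured as the number of ChIP-seq tags in the 3 kb around it, and the gene bodies with 20 kb on each side gave 100 windows of 3 kb, out of 462400 such windows near genes.

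The cells were C10, a single line made from HAFTL mouse pre-B cells that carries C/EBPαER-GFP, a C/EBPα fused to the estrogen receptor. Every library carried this transgene, the 0 hr libraries included. β-estradiol (with IL-3 and CSF-1 at 10 nM) moves the fusion protein into the nucleus, and the cells become macrophage-like. The concentration of β-estradiol is 100 nM in the labels and 100 µM in the methods, and which holds is not settled here. H3K27Ac (found at active promoters and enhancers), H3K4Me1 (found at enhancers, whether active or poised) and H3K27Me3 (the Polycomb mark of silent genes) were each mapped at 0, 3, 12, 24 and 48 hr post-induction (hpi). Control cells received 0.1% ethanol, but whether the 0 hpi cells did is not stated. Each mark and time had a single library, so differences between times have no replicate check and were not tested. The intervals given are exact 95% intervals for counting error only.

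Receptors for the Fc part of IgG let phagocytes take up antibody-coated particles. Most have no signaling motif of their own: Fcgr1, Fcgr3 and Fcgr4 pair with the Fc receptor gamma chain made from Fcer1g, whose cytoplasmic ITAM (immunoreceptor tyrosine-based activation motif) recruits the kinase Syk. Tyrobp (DAP12) is a second ITAM adaptor, used by receptors such as those of the Trem family, and Hcst (DAP10) is a related adaptor with a PI3-kinase binding motif. Fcgr2b is the inhibitory IgG receptor, carries an inhibitory motif (ITIM) in its own tail, and is the Fc receptor that B cells express.

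The deposited libraries held 15.93 to 18.56 M tags for H3K27Ac, 11.04 to 17.85 M for H3K4Me1 and 15.36 to 31.56 M for H3K27Me3, and all counts below come from libraries thinned to 15.22, 10.91 and 15.34 M tags within each mark. A 3 kb window held on average 18.3, 13.1 and 18.4 tags, and is called enriched from 34, 27 and 34 tags on. A start is said to have risen or fallen when it changed at least 2-fold after 5 tags were added to both counts, which is a limit of size and not a test. At 48 against 0 hpi, 5.34% of all starts rose in H3K27Ac and 9.31% fell. As a label check, H3K27Ac of all 7 macrophage genes listed rose and that of all 8 B cell genes fell by total tags. However, all 8 B cell starts were still enriched at 48 hpi. Scaling by bins enriched at all 5 times shifts every 48 hpi log2 value by 0.42. Vpreb1 (-1.02), Cd79b (-1.24) and Ebf1 (-1.29) then no longer reach 2-fold. No start of 6 T and NK cell genes or 5 mast cell genes changed 2-fold or was enriched at 0 or 48 hpi (summed tags over the 5 times 20 to 49 and 13 to 28). Of 5 neutrophil genes, Camp (12 to 995 tags) and Elane (16 to 65 tags) rose while Mpo, Ltf and Ngp stayed at 3 to 14 tags, and the part of this in the results below was not tested. More cells carrying a mark and more of the mark per cell cannot be told apart in these bulk libraries.

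The promoters are shown first, because the genes differed in how H3K27Ac changed there. RefSeq promoters were matched for 6 of the 7 genes, all but Tyrobp, and each was found by exact match at 1 place in the gene's surroundings in mm9. The 250 bases before each RefSeq start are printed 5′ to 3′ on the strand of the gene. For Fcgr3 this is the start of the longest coding transcript. It lies 5532 bp from the 5′ end of the gene, which is used for Fcgr3 in counts over the 7 genes. Capitals mark matches, on either strand, to GAGGAA (the core of the PU.1 motif) or its longer form GAGGAAGT, TTNCNNAA (C/EBP) or TGTGGT (Runx). The first 3 sequences belong to the activating receptors Fcgr1 (chr3:96097893-96098142, minus strand), Fcgr3 (chr1:172989535-172989784, minus strand) and Fcgr4 (chr1:172948807-172949056, plus strand). The others belong to Fcer1g (chr1:173164481-173164730, minus strand), Hcst (chr7:31204874-31205123, minus strand) and Fcgr2b (chr1:172906203-172906452, minus strand).
Fcgr1 promoter: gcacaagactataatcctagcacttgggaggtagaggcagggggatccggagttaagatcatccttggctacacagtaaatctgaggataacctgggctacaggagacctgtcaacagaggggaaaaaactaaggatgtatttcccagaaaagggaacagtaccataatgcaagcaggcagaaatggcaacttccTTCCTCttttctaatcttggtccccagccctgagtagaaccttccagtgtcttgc
Fcgr3 promoter: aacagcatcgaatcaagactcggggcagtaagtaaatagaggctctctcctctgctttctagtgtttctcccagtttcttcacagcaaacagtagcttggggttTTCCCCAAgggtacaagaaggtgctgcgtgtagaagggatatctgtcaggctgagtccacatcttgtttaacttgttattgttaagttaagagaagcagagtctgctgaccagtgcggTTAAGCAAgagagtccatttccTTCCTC
Fcgr4 promoter: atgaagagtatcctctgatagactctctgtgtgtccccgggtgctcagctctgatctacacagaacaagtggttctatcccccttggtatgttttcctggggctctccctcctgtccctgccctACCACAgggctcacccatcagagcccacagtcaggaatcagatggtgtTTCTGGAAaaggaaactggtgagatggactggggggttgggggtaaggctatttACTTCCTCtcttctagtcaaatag
Fcer1g promoter: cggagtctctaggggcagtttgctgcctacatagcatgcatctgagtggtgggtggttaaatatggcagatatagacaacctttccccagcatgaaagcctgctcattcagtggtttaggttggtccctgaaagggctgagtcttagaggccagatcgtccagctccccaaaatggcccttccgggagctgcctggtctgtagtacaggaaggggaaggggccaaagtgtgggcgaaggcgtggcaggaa
Hcst promoter: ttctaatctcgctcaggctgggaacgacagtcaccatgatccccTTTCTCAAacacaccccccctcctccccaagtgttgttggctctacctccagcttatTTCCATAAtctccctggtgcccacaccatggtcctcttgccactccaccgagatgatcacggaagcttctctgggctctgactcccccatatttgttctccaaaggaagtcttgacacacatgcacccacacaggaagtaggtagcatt
Fcgr2b promoter: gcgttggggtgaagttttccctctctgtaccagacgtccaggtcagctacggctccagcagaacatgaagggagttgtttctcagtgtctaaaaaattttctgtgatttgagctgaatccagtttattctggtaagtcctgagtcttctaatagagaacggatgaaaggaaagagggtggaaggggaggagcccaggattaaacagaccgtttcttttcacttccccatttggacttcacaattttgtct

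GAGGAA was found in 3 of the 6 promoters, those of Fcgr1, Fcgr3 and Fcgr4. In all 3 it lay on the opposite strand, beginning 55, 6 and 22 bases before the start. The share of all 32851 RefSeq promoters with this match in their 300 bases (250 before and 50 after the start) was 28.3%. The longer PU.1 form GAGGAAGT, which contains GAGGAA, was found in the Fcgr4 promoter and in 3.2% of all promoters. TTNCNNAA was found in the promoters of Fcgr3, Fcgr4 and Hcst and in 40.7% of all, and its stricter form TTGCNNAA in that of Fcgr3 and in 10.8% of all. TGTGGT was found in the Fcgr4 promoter and, in the 50 bases after the start that are not printed, in those of Fcgr4 and Fcer1g, against 16.8% of all. Neither TGANTCA (AP-1; 7.81% of all) nor the palindromic Ebf1 motif (0.904% of all) was found in any of the 6, and no motif searched was found in the Fcgr2b promoter. These matches describe the letters in the windows and do not show binding.

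At Tyrobp the study placed a ChIP primer pair upstream of the start, shown because it marks the segment that the study itself assayed there. The pair matched chr7:31197754-31197838 in mm9, an amplicon of 85 bp about 1 kb before the Tyrobp start and outside its exons.
tyrobp-5: cccagagtggcattagcttc
tyrobp-3: tatgtcacgccctgtagcac

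The adaptor genes differed in how much H3K27Ac they had before induction. Fcer1g (chr1:173159703-173164496, minus strand) had 71 tags at its start at 0 hpi (interval 55.5 to 89.6), then 45, 339, 783 and 670 tags at 3, 12, 24 and 48 hpi. The count dipped at 3 hpi, then climbed to its highest at 24 hpi, and the 3 later counts stood far outside the counting intervals of the first pair. At 48 hpi Fcer1g stood 9.44-fold over 0 hpi (7.38 to 12.2), a log2 change of 3.15. The step from 24 to 48 hpi was -0.22 on the log2 scale by total tags but 0.17 when libraries were scaled by bins that were always enriched (common-bin scaling), so which of these times was higher depends on the scaling.

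Tyrobp (chr7:31198807-31202596, plus strand) started from 331 tags (296 to 369) and had 378, 699, 974 and 787 tags at the later times. It was thus well marked in the pre-B cells, at 18.1 times the mean window, and still rose 2.38-fold by 48 hpi (2.09 to 2.71). The 3 kb window that holds the primer pair, chr7:31197001-31200000, had 379, 430, 765, 1055 and 843 tags. It overlaps most of the start window (chr7:31197307-31200306), so these are largely the same tags and not a second observation.

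Hcst (chr7:31202732-31204873, minus strand) lies tail to tail with Tyrobp, with 135 bp between the genes and 6.07 kb between the starts. It had the highest level of the 7 genes at every time, with 941, 792, 1360, 1486 and 1008 tags at 0, 3, 12, 24 and 48 hpi. The 48 hpi count was 1.07-fold that of 0 hpi (0.979 to 1.17), an interval that holds no change, and the highest count, at 24 hpi, did not reach 2-fold by total tags (log2 change 0.66) but did with libraries scaled by bins that were never enriched (background-bin scaling; 1.2). So the neighbours moved to different extents, Tyrobp by 1.24 and Hcst by 0.10 on the log2 scale at 48 hpi. The Hcst start window also takes in part of the 3 kb around the start of another gene, Nfkbid, 1.88 kb upstream. Those 3 kb had 1172, 1119, 1197, 1331 and 796 tags. The level and change given for Hcst thus include tags that lie near the Nfkbid start.

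The activating receptors had 12 to 44 H3K27Ac tags at their 5′ ends in the pre-B cells, where Fcgr1 and Fcgr3 reached the enrichment limit. Fcgr4 (chr1:172949051-172959892, plus strand) encodes a receptor for IgG2a and IgG2b found on mouse myeloid cells. It had 12 H3K27Ac tags at its start at 0 hpi (6.2 to 21), which is below the mean window, and 13, 87, 358 and 272 tags later. The counts of 0 and 3 hpi had overlapping intervals, and enrichment was first reached at 12 hpi. The 48 hpi count was 22.7-fold that of 0 hpi (12.8 to 44.4), the largest ratio among the 7 starts, with a log2 change of 4.03.

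Fcgr1 (chr3:96086832-96098179, minus strand), the high-affinity IgG receptor, had 34, 67, 198, 487 and 200 tags. It was just enriched at 0 hpi. At 3 hpi its count was 1.97-fold that of 0 hpi (1.29 to 3.07), a log2 change of 0.88 by total tags that reached the 2-fold limit under common-bin scaling and was 0.63 under background-bin scaling. At 48 hpi it stood 5.88-fold over 0 hpi (4.07 to 8.73). By total tags it fell at least 2-fold between 24 and 48 hpi (ratio 0.411, 0.347 to 0.485), as 1 of the 7 starts and 1.77% of all starts did. That step was -1.26 on the log2 scale by total tags, -1.89 under background-bin scaling and -0.88 under common-bin scaling. Under background-bin scaling Fcgr2b (-1.26), Hcst (-1.19), Fcgr3 (-1.02) and Fcgr4 (-1.01) passed 2-fold over this step too, and under common-bin scaling 0 of the 7 did. Background-bin scaling shifts every 24 hpi value by 0.54 and every 48 hpi value by -0.09 on the log2 scale. It thus lowers all starts over this step, and the share of all starts that passed 2-fold under it is not given.

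Fcgr3 (chr1:172981300-172995066, minus strand), the low-affinity activating receptor, has starts that give different answers. The 5′ end of the gene belongs to 1 of its 5 transcripts, and only 18.9% of the 36-base stretches around it are unique in the genome, so few tags could align there. In that window the H3K27Ac counts were 44, 29, 37, 31 and 21, enriched at 0 and 12 hpi only. The log2 change of -0.91 at 48 hpi did not reach 2-fold, but did with all tags kept or after a second random thinning. At the start of the longest coding transcript, 5532 bp away and with 93.8% unique stretches, the counts were 51, 36, 110, 438 and 460, enriched at every time. There the 48 hpi count was 9.02 times that of 0 hpi, a log2 change of 3.05, so the gene gained the mark at this start, mainly between 12 and 24 hpi. Both values are kept apart below, and counts over the 7 genes use the 5′ end of each gene. The other 6 start windows had 94.7% to 100% unique stretches.

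Fcgr2b (chr1:172890689-172906678, minus strand), the inhibitory receptor, was among the best marked starts in the pre-B cells. Its start had 768, 502, 730, 840 and 538 H3K27Ac tags at 0, 3, 12, 24 and 48 hpi, and 97.5% of all starts were lower at 0 hpi. It dropped at 3 hpi (ratio 0.654, 0.583 to 0.732), recovered by 12 hpi and was lower again at 48 hpi (0.701, 0.626 to 0.783). None of these steps reached 2-fold, and the 48 hpi change of -0.51 became -0.09 under common-bin scaling.

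**Figure D1:**
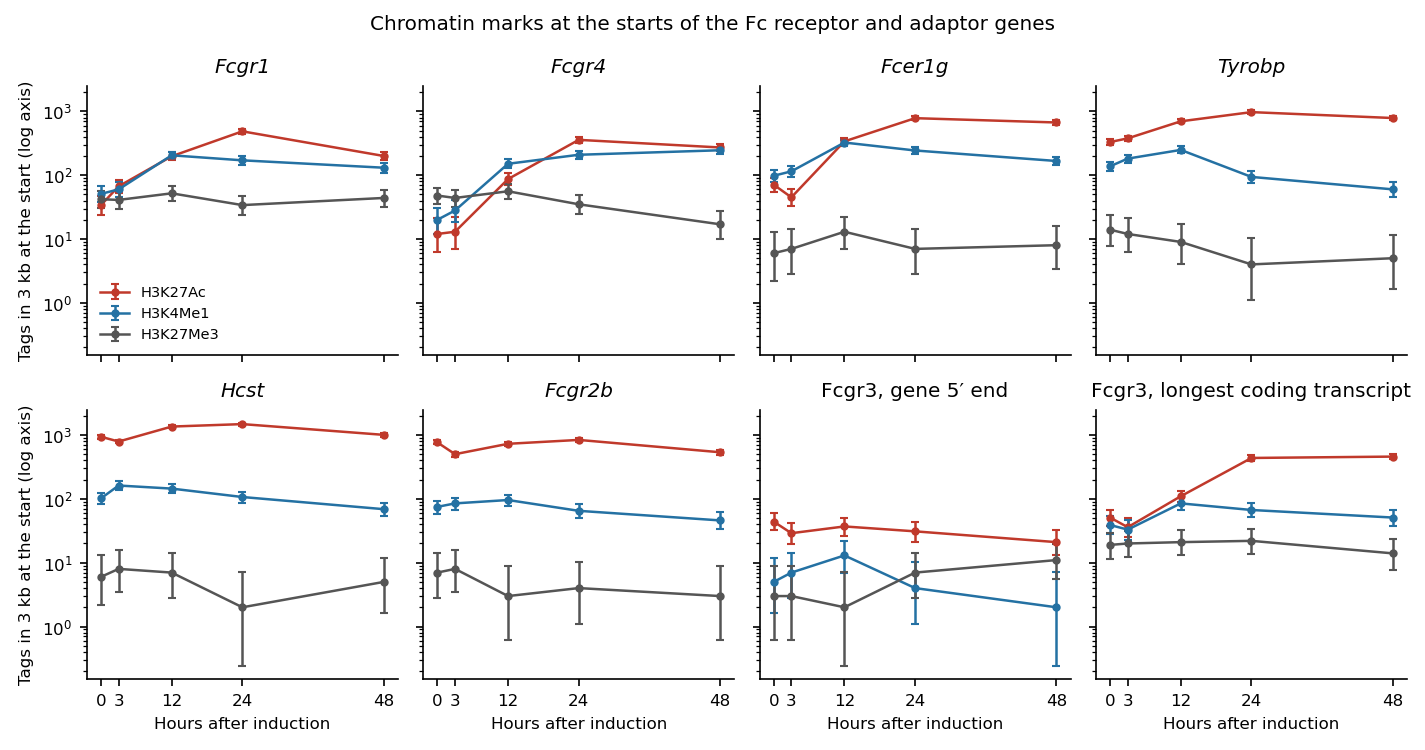
Tags in the 3 kb at each start (log axis) against hours after induction for H3K27Ac (red), H3K4Me1 (blue) and H3K27Me3 (grey), with 95% Poisson intervals as bars and 1 library per point. H3K27Ac climbs at Fcgr1, Fcgr4, Fcer1g, Tyrobp and the longest coding transcript of Fcgr3, and stays high at Hcst and Fcgr2b. The 5′ end of Fcgr3 holds 21 to 44 tags, and only 18.9% of its 36-base stretches are unique.

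Taking the 7 starts as a list, 4 rose at 48 hpi (Fcgr1, Fcgr4, Fcer1g and Tyrobp) and 0 fell, against 5.34% and 9.31% of all starts. At 3 hpi 0 of 7 had risen by total tags (4.26% of all), with Fcgr1 at the limit under common-bin scaling. At 12 and 24 hpi the count was 4 by total tags (4.36% and 4.68%). Under background-bin scaling Tyrobp (0.93) did not reach 2-fold at 12 hpi, and Hcst (1.2) did at 24 hpi. The median change of the 7 at 48 hpi was 1.24, against -0.14 over all starts. The 4 starts that rose kept a change of at least 1.15 under background-bin or common-bin scaling. Those scalings shift every 48 hpi H3K27Ac value by -0.09 and 0.42 on the log2 scale, and every 24 hpi value by 0.54 and 0.02.

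The order of the levels changed with time. At 0 hpi H3K27Ac ran from Hcst (941) through Fcgr2b (768), Tyrobp (331), Fcer1g (71), Fcgr3 (44) and Fcgr1 (34) to Fcgr4 (12). Fcer1g and Fcgr3, and Fcgr3 and Fcgr1, had overlapping intervals, and the other neighbours in this order did not overlap. At 48 hpi the order was Hcst (1008), Tyrobp (787), Fcer1g (670), Fcgr2b (538), Fcgr4 (272), Fcgr1 (200) and Fcgr3 (21), and no neighbours overlapped. Both ITAM adaptors were thus above Fcgr2b at 48 hpi, having been below it at 0 hpi. All windows are 3 kb wide, but that of Fcgr3 has few unique stretches, so its place in this order is not comparable. At its longest coding transcript Fcgr3 had 460 tags at 48 hpi, between Fcgr2b and Fcgr4.

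H3K4Me1 at the starts followed a different course. At 12 hpi the count was above that of 0 hpi at all 7 starts, by 0.34 (Fcgr2b) to 2.64 (Fcgr4) on the log2 scale. Under common-bin scaling the range was 0.09 to 2.39. For Fcgr2b (1.28-fold, 0.936 to 1.76) and the sparse 5′ end of Fcgr3 (5 to 13 tags, 2.6-fold, 0.87 to 9.31) the interval holds no change. The median over all starts was 0.00 at that time. Of the 7 starts 3, described next, passed 2-fold at 12 hpi by total tags, which 3.2% of all starts did. Under background-bin scaling Tyrobp (1.44), Fcgr3 (1.32) and Hcst (1.09) passed it too, and Fcgr2b (0.93) did not. That scaling shifts every 12 hpi H3K4Me1 value by 0.62 on the log2 scale, and no share of all starts is given for it.

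Fcgr4 had 20, 28, 151, 209 and 246 H3K4Me1 tags and was the only member whose count grew at each step, ending 12.3-fold over 0 hpi (7.79 to 20.5). For its steps from 0 to 3 hpi (1.4-fold, 0.761 to 2.62) and 24 to 48 hpi (1.18-fold, 0.975 to 1.42) the interval holds no change. Fcgr1 had 51, 60, 205, 171 and 131 tags, and Fcer1g had 98, 115, 325, 244 and 167 tags. In the latter pair the highest count was that of 12 hpi, although for Fcgr1 the interval of the 24 against 12 hpi ratio holds no change (0.834, 0.677 to 1.03). At 48 hpi Fcgr4 and Fcgr1 were still past 2-fold (2 of 7, against 3.34% of all starts), while Fcer1g stood at a log2 change of 0.74. Under background-bin scaling Fcer1g was at 1.25 and the count was 3 of 7, against 6.69% of all starts.

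At Tyrobp, Hcst and Fcgr2b, the starts with the most H3K27Ac at 0 hpi, the H3K4Me1 count ended lower than it began. Tyrobp had 138, 182, 249, 94 and 60 tags, so it first grew and then fell below its starting level. Its log2 change from 0 to 48 hpi was -1.14 (1 of 7 past 2-fold, against 9.88% of all starts). Under background-bin scaling this change was -0.64 and did not reach 2-fold. Hcst had 102, 162, 145, 107 and 69 tags, and Fcgr2b had 75, 85, 96, 65 and 46, without a 2-fold change at 48 hpi. Their changes of -0.53 and -0.65 became -0.03 and -0.17 under background-bin scaling. The median change of all starts at 48 hpi was -0.27.

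Only Fcgr1 and Fcgr4 carried H3K27Me3 at their starts among the 7 genes, against 16.2% of all starts enriched at 0 hpi. Fcgr1 had 42, 41, 52, 34 and 44 tags and was at or above the enrichment limit of 34 tags at every time, exactly at it at 24 hpi. Fcgr4 had 48, 44, 56, 35 and 17 tags, so the mark was at its starting level until 12 hpi and below enrichment at 48 hpi. The 48 hpi count was 0.354 times that of 0 hpi (0.191 to 0.627), a log2 change of -1.27, and 2.01% of all starts fell at least 2-fold. The other 5 starts held 2 to 14 H3K27Me3 tags at all times, below the mean window. For Fcgr3 this is the 5′ end, where few stretches are unique. At its longest coding transcript Fcgr3 had 19, 20, 21, 22 and 14 tags, near the mean window and below enrichment. Windows over Fcgr3 passed the limit at some times, with 38 tags at 12 hpi in chr1:172980001-172983000 and 41 at 24 hpi in chr1:172983001-172986000. The 5′ end of Fcgr3 met the 2-fold limit upward with 3 and 11 tags (1.61% of all starts), a change that turned to -0.34 at its longest coding transcript.

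Around the Fcgr4 start the loss of H3K27Me3 was narrow. The window that holds the start, chr1:172947001-172950000, had 51 tags at 0 hpi and 16 at 48 hpi, while its H3K27Ac went from 15 to 331. The windows on either side had 47 and 45 H3K27Me3 tags at 0 hpi and 64 and 55 at 48 hpi, and the next window into the gene went from 42 to 75. This start window was the only one of the 100 in which H3K27Me3 fell at least 2-fold from enrichment (0.132% of windows near genes). At Fcgr1 the window of the start, chr3:96096001-96099000, had 38, 26 and 34 H3K27Me3 tags at 0, 24 and 48 hpi, so it was not enriched at 24 hpi, while its H3K27Ac went from 34 to 212 at 48 hpi. Fcgr1 and Fcgr4 thus both gained H3K27Ac inside a stretch of H3K27Me3. In 3 kb this mark fell at the Fcgr4 start and not beyond counting error at that of Fcgr1 (48 against 0 hpi 1.05-fold, 0.671 to 1.64). The contrast depends on the window width. In 1 kb the Fcgr1 start went from 13 to 7 tags (log2 change -0.58), and in 6 kb no member start fell 2-fold.

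**Figure D2:**
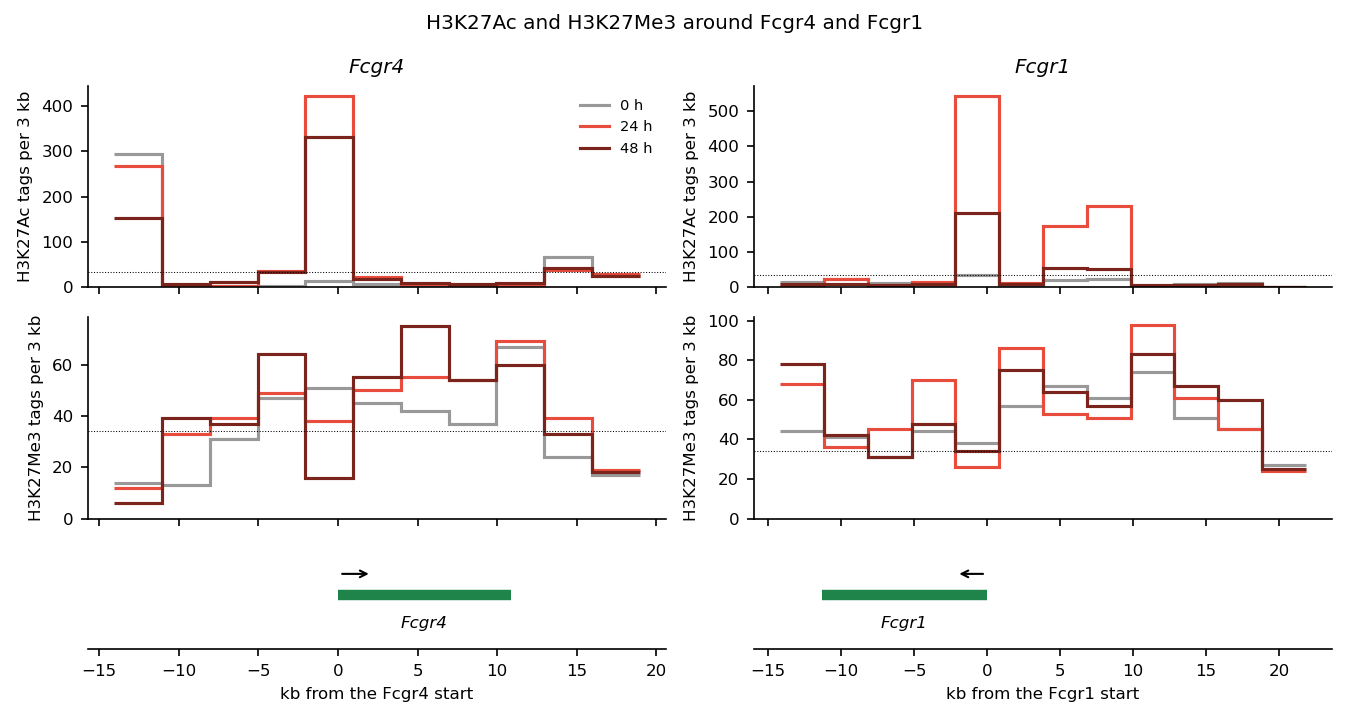
H3K27Ac (upper) and H3K27Me3 (lower) tags per 3 kb window against the distance in kb along the chromosome from the Fcgr4 and Fcgr1 starts, at 0, 24 and 48 hpi. Green bars are the genes, arrows their direction, and dotted lines the enrichment limit of 34 tags. H3K27Me3 drops to 16 tags in the Fcgr4 start window at 48 hpi, with 64 and 55 tags on either side.

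Beyond the starts, H3K27Ac was enriched in 46 of the 100 windows at 0 hpi and in 59 at 48 hpi, against 9.71% and 14.7% of the windows near genes. A window is called risen when it was enriched at 48 hpi and at least 2-fold over 0 hpi, and 27 of the 100 windows were, against 6.27% of the windows near genes. By the same rule 3 windows had risen by 3 hpi (1.38% of the windows near genes), 18 by 12 hpi (3.09%) and 25 by 24 hpi (4.46%). Of the 27, 13 were enriched for both H3K4Me1 and H3K27Ac at 0 hpi, 6 for H3K4Me1 only, 1 for H3K27Ac only and 7 for neither. These are 48.1%, 22.2%, 3.7% and 25.9% of the risen member windows, against 14.7%, 26.4%, 0.659% and 58.3% of all 28995 risen windows near genes. The member windows also began more often marked, with 46.0% enriched for H3K27Ac and 52.0% for H3K4Me1 at 0 hpi. Near genes these shares were 9.71% and 15.7%. The share of each class among all windows is not given, so the mix of the risen windows may reflect where they began. Of the 7 that had neither mark, 5 lay at or beside Fcgr4 and Fcgr3 and 2 upstream of Fcer1g.

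Fcgr2b gained H3K27Ac inside the gene and in its flanks and not at its 5′ end, with 3 risen windows in the gene and 3 outside it. Of those outside, chr1:172887001-172890000 was at the 2-fold limit (log2 change 1.0) and below it under background-bin scaling (0.92). Another annotated transcript start inside the gene had 147, 193, 148, 325 and 325 tags (2.21-fold at 48 hpi, 1.81 to 2.71). All 3 windows that had risen by 3 hpi in the 100 were at this locus, 2 of them in the gene body and 1 just past its end. The window chr1:172896001-172899000, over an Fcgr2b exon and 9.18 kb from the start, had 36, 194, 281, 334 and 236 H3K27Ac tags, so most of the gain was there by 3 hpi. The next window toward the start, chr1:172899001-172902000, had 22, 84, 63, 139 and 161 tags. The window toward the end of the gene, chr1:172893001-172896000, rose later, with 31, 58, 75, 212 and 314 tags, and had the largest ratio of the locus (10.1, 6.99 to 15.2). H3K4Me1 in the window at 9.18 kb was 54, 58, 198, 191 and 146 tags, and thus still near its starting level at 3 hpi when H3K27Ac had risen.

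In the flanks of Fcgr2b some windows moved and others did not. Between genes, chr1:172878001-172881000 rose from 66 to 193 tags and chr1:172923001-172926000 from 89 to 211. The highest H3K27Ac count of the locus was not at the gene but 24.2 kb from its start, between genes, in chr1:172881001-172884000, with 822, 745, 758, 868 and 887 tags. No window of the locus fell at 48 hpi by total tags, and none was enriched for H3K27Me3 at any time. Under background-bin scaling chr1:172917001-172920000 passed the limit (log2 change -1.01). At 3 hpi 2 windows upstream of the start had fallen (1.45% of windows near genes), from 215 to 87 and from 162 to 73 tags. They had 170 and 108 tags at 12 hpi, and 115 (0.535-fold, 0.423 to 0.674) and 83 (0.512-fold, 0.388 to 0.672) at 48 hpi.

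The interval from Fcgr4 to Fcgr3 gained separate islands of H3K27Ac. Of its 29 windows 8 had risen, and the total over all 29 went from 823 tags at 0 hpi to 2026 at 48 hpi. The largest ratio of all 100 windows lay at the 3′ end of Fcgr3, in chr1:172980001-172983000, with 4, 5, 43, 178 and 213 tags (53.2-fold, 20.5 to 197). The window with the most H3K27Ac at 48 hpi was chr1:172989001-172992000, at the start of the longest coding transcript, with 43, 33, 92, 339 and 370 tags. A window over Fcgr3 between them, chr1:172983001-172986000, came up only at the end, with 4, 9, 6, 25 and 142 tags. Upstream of Fcgr3 the 7 windows from chr1:172995001 on had 6.37% to 20.8% unique stretches and at most 8 H3K27Ac tags each, so nothing can be read from them.

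**Figure D3:**
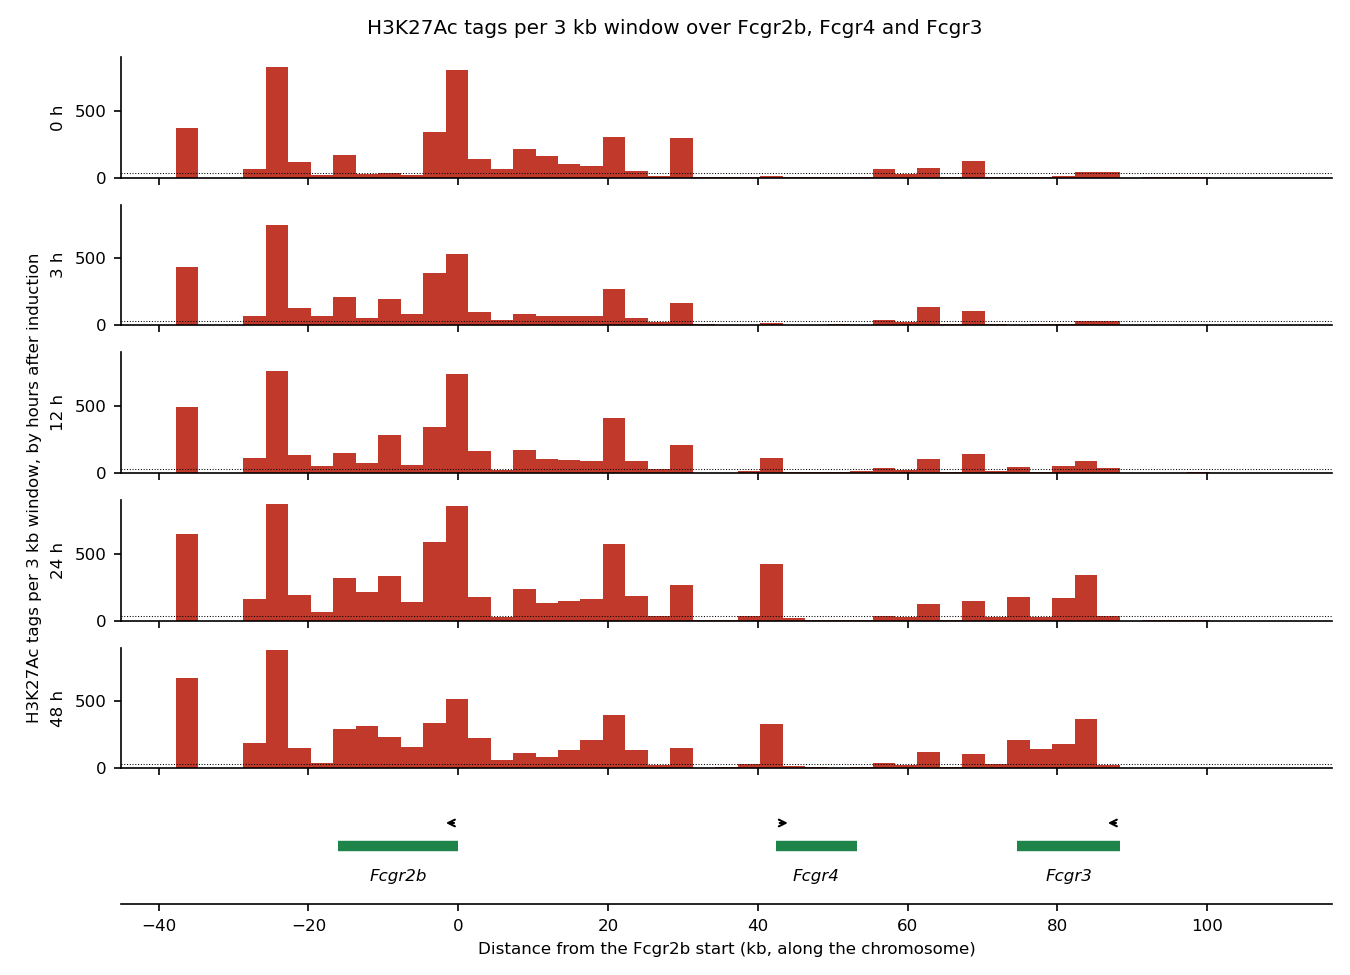
H3K27Ac tags per 3 kb window over the Fcgr2b, Fcgr4 and Fcgr3 loci at 0, 3, 12, 24 and 48 hpi, against the distance in kb from the Fcgr2b start along the chromosome; green bars are the genes, arrows their direction, and the dotted line is the enrichment limit of 34 tags. Fcgr2b is marked at all times and fills in inside the gene, whereas Fcgr4 and Fcgr3 gain signal from 12 hpi on.

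At Fcer1g the gain was centred on the gene. The start window chr1:173163001-173166000 had the counts given above, and the window over the rest of the gene had 46, 37, 140, 352 and 309 tags. Of the 16 windows 5 had risen. Beside it, Apoa2 (8 to 31 tags) and Adamts4 (31 to 68 tags) passed 2-fold at their starts, while Tomm40l (177 to 102) and Nr1i3 (8 to 18) did not.

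At Tyrobp and Hcst all 5 risen windows of 17 were enriched for H3K4Me1 and H3K27Ac at 0 hpi. They covered Tyrobp with its upstream side, and a pair of windows over Nfkbid, a nuclear inhibitor of NF-κB whose start lies 1.88 kb from that of Hcst. The largest ratio was in that pair, in chr7:31209001-31212000, with 93, 93, 224, 426 and 351 tags (3.77-fold, 2.99 to 4.8). Under background-bin scaling chr7:31194001-31197000 (0.94) and chr7:31200001-31203000 (0.98) did not reach 2-fold. The Nfkbid start itself had 1172, 1119, 1197, 1331 and 796 tags and did not reach a 2-fold change.

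The Fcgr1 locus moved in opposite directions along its length. Its 3 risen windows were at the start and, between genes on its upstream side, at 5.32 and 8.32 kb, the last with 24, 28, 89, 231 and 53 tags. The window at 8.32 kb was at the 2-fold limit (log2 change 1.0) and below it under background-bin scaling (0.92). All 3 windows among the 100 that fell by total tags (2.82% of windows near genes) were also here. They lay on the other side, at the histone genes Hist2h4, Hist2h3b and Hist2h2bb, with chr3:96078001-96081000 and chr3:96081001-96084000 over Hist2h2bb itself. The largest fall was in chr3:96069001-96072000, between genes, with 554, 376, 332, 177 and 108 tags (0.195-fold, 0.157 to 0.240). The Hist2h3b start fell from 715 to 310 tags, and those of Hist2h4 (849 to 551) and Hist2h2bb (438 to 251) did not reach 2-fold.

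**Figure D4:**
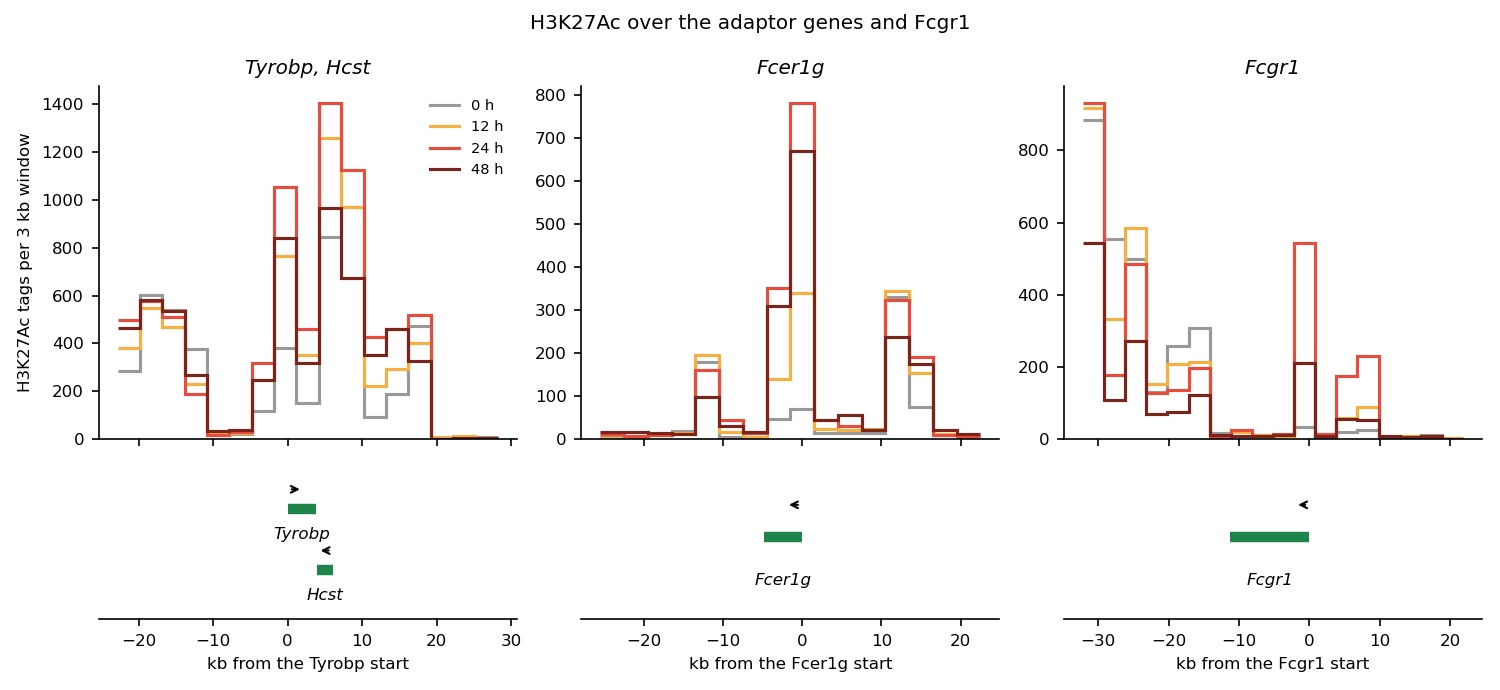
H3K27Ac tags per 3 kb window over the Tyrobp and Hcst, Fcer1g and Fcgr1 loci at 0, 12, 24 and 48 hpi, against the distance in kb along the chromosome; green bars are genes and arrows their direction. Tyrobp and Hcst are high from the outset, Fcer1g rises from 71 to 670 tags, and Fcgr1 is highest at 24 hpi, beside windows toward the histone genes that decline by 48 hpi.

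Several receptors listed as partners of these adaptors gained H3K27Ac at their starts. The list was made by name and pairing was not measured, which also holds for Clec7a (19 to 112 tags), counted below among those that rose. Of 20 listed receptors that pair with Fcer1g, Tyrobp or Hcst, 18 were matched in the annotation, 9 rose and 1 fell, with a median change of 1.09. Of all starts 5.34% rose and 9.31% fell, with a median of -0.14. The largest rises were at the C-type lectin genes Clec4d (2, 12, 76, 490 and 1002 tags) and Clec4e (3, 17, 82, 453 and 747 tags), which lie in the same gene cluster and recognize mycobacterial glycolipid. Cd300ld (12 to 272) and Cd300lb (15 to 277) followed. Trem2, a lipid receptor that uses Tyrobp, went from 2 to 53 tags. Plxna1 fell from 481 to 149 tags, and Csf2rb (440 to 609) and Oscar (104 to 93) did not reach 2-fold.

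Syk was not matched in the annotation, so it was not counted. Among 20 matched genes of ITAM signaling 3 rose and 3 fell, against 5.34% and 9.31% of all starts. Their median was -0.21, near that of all starts (-0.14). The falls were 1 under common-bin scaling. The Src-family kinase gene Fgr (16 to 69 tags), the scaffold gene Lcp2 (318 to 763) and Bcl10 (232 to 492) rose. Pik3cd (750 to 223) and Plcg2 (569 to 256) were among those that fell, and at the start of its longest coding transcript Pik3cd (542 to 270, log2 change -0.99) did not reach 2-fold. Of the 20 starts 17 were enriched at 0 hpi and 18 at 48 hpi, against 46.3% and 47.2% of all starts. Lyn, the main Src-family kinase of B cells, had 841 tags at 0 hpi and 921 at 48 hpi.

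Of 14 matched genes of inhibitory signaling 5 rose and 2 fell (median -0.42), against 5.34% and 9.31% of all starts. Under common-bin scaling 0 fell. The 5 that rose encode surface receptors. Lilrb4 went from 0 tags at 0 hpi to 604 at 48 hpi. Cd33 went from 13 to 1355, Siglece from 6 to 53, Sirpa from 178 to 561 and Cd300a from 24 to 67 tags. Another surface receptor gene, Clec12a, had 13 tags at 0 hpi and 9 at 48 hpi at its 5′ end, but 122 and 51 (log2 change -1.18) at the start of its longest coding transcript. The genes that fell were Inpp5d (SHIP1, the phosphatase recruited by Fcgr2b; 1235 to 502 tags) and the adaptor gene Dok3 (1704 to 679 tags), while Ptpn11 (183 to 186 tags) did not reach 2-fold.

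The other Fc receptors and relatives gave 2 rises and 3 falls among 13 genes, with a median of -0.58, against 5.34% and 9.31% of all starts and a median of -0.14. Under common-bin scaling 1 fell. Fcrla and Fcrlb, neighbours on the side of Fcgr2b away from Fcgr4, moved in opposite directions. Fcrlb, 63.6 kb from the Fcgr2b start, had 8, 19, 218, 693 and 628 H3K27Ac tags. Fcrla, 49 kb from it and a B cell gene, had 925, 777, 464, 580 and 445. The neonatal Fc receptor gene Fcgrt went from 11 to 37 tags, Fcrl1 fell from 304 to 102 and Fcrl6, below enrichment at both times, from 15 to 5. The IgE receptor genes Fcer1a (9 to 3) and Ms4a2 (8 to 2) were not enriched at 0 or 48 hpi. Of 6 lymphocyte ITAM chain genes 0 rose and 2 fell, those of the B cell receptor: Cd79a had 1232, 820, 707, 594 and 296 tags and Cd79b had 1269, 452, 847, 792 and 535. Under common-bin scaling 1 of these fell.

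**Figure D5:**
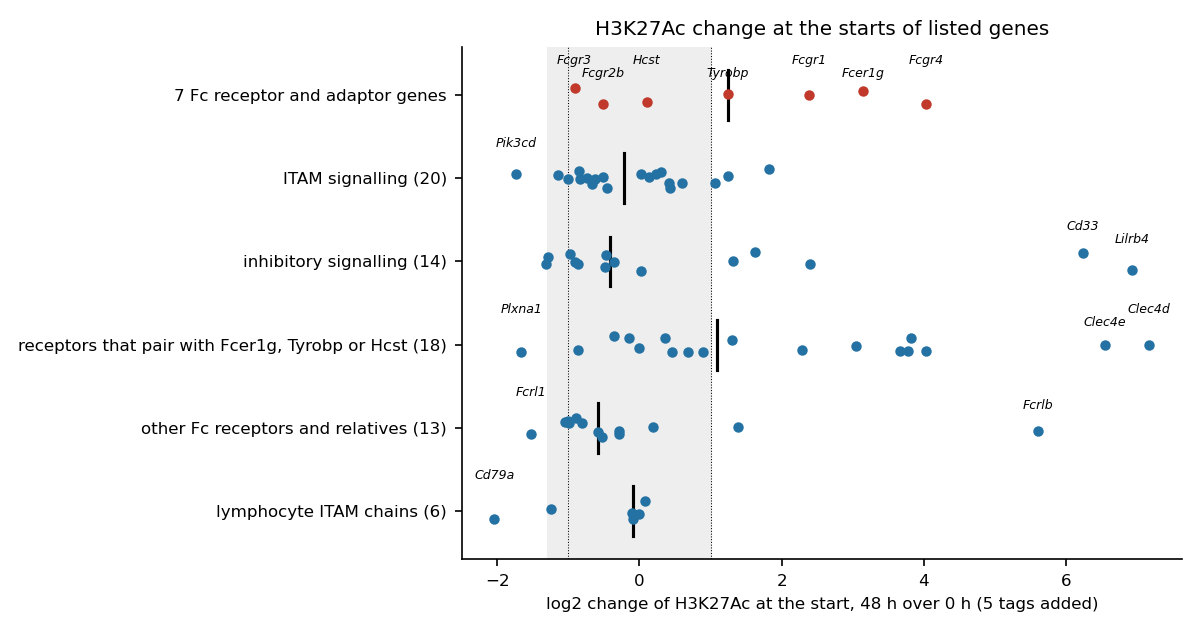
log2 change of H3K27Ac at the start, 48 over 0 hpi with 5 tags added, for the 7 genes (red) and the genes of 5 lists (blue, number of genes in brackets); each point is a gene, black bars are medians, dotted lines mark 2-fold, and the grey band holds the 5th to 95th percentile of all starts. Clec4d, Lilrb4, Clec4e, Cd33 and Fcrlb lie farthest to the right, and Cd79a farthest to the left.

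The starts most like each gene over all 15 libraries were found by the Euclidean distance between their log2 counts (with 5 tags added). Fcgr4 was nearest to Stab1 (1.74), 1810033B17Rik (1.76) and Siglec1 (1.90), where the median distance to all starts was 10.04. Fcgr1 was nearest to Gm11428 (1.69), Cd300lb (1.77) and Ifitm3 (1.82; median 9.31). Fcer1g was nearest to Pla1a (2.05), Cd68 (2.18) and Tmem180 (2.22; median 10.88), and Tyrobp to Snx20 (1.27), 1300001I01Rik (1.38) and Mpeg1 (1.44; median 12.29). Hcst was nearest to Msh5 (0.96), Hcls1 (0.98) and Fermt3 (1.02; median 13.98), and Fcgr2b to Trim25 (0.85), Rps15a (0.93) and Mars (1.06; median 12.25). The sparse 5′ end of Fcgr3 was nearest to Rsl1 (1.74), Gm9222 (1.87) and Ccl27a (2.00; median 7.30). Among the 7 genes themselves the closest pairs were Fcgr2b with Hcst (2.33) and Tyrobp with Hcst (2.56), and Fcgr1 was closer to Fcgr4 (3.44) than to any other member.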

How the data were processed

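H3K4Me1, H3K27Ac and H3K27Me3 ChIP-seq libraries of C10 cells formed 15 groups of 1 library, taken from the labels. The authors aligned reads to mm9 with Eland or Bowtie without mismatches (versions are not given in the sources used here) and kept unique alignments. The deposited files list the position of each 36 bp tag, without strand or counts, so tags were counted here. Lines that hold no position (2 at the end of 3 files) were left out. Because 2 libraries held 1 tag per position, 11 at most 2 and 2 more than 2, 1 tag per position was kept in all, which left at least 94.4% of the tags. Tags were placed at the middle of their interval, and libraries were thinned at random to the smallest of their mark (chromosomes 1 to 19 and X).

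Gene starts are the 5′ ends of genes in GENCODE vM1 (NCBIM37, which is mm9). Enrichment of a window meant a Poisson tail probability under 0.001, given the mean of all windows with tags. Counts have exact Poisson and ratios exact conditional binomial intervals (95%). PCR copies that map elsewhere remain. Uniqueness was measured as the share of 36-base stretches that occur once in mm9. Promoters and starts of RefSeq (GRCm38.p6) were placed on mm9 by exact sequence match. The H3K27Ac comparison of 48 with 0 hpi was simulated over 22350 starts. Planted rises of 2.5-fold and 5-fold were called in 98% and 100% of cases, and falls to 0.4 and 0.2 in 82% and 100%. Of unchanged starts 1.35% were called. With 1 library per mark and time, variation between repeat libraries could not be estimated, so these shares do not cover it.

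The members, lists and windows were chosen with earlier results of these data known. Named are all 7 genes, up to 4 rises and 4 falls per list, the strongest window and the windows with the largest rise and fall per locus, all neighbouring starts and the 3 nearest starts. Other windows and genes, named beside them, were chosen after their values were seen. Of the listed genes, 4 symbols (Syk, Pirb, Pira1 and Pira6) were not matched in the annotation. Alternatives changed the scaling, thinning, repeated tags, window width, tags added, start and fold. Factor binding and expression were not analysed here. Some genes that the naming rule picks are not reported here. Python 3.11.15, numpy 2.4.6, pandas 2.3.3 and scipy 1.17.1 were used.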

Additional observations from a re-analysis of the deposited data

How the results depend on the processing

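No paired analysis was possible because no group held a second library, and none could be left out. Over 39 results and 14 alternatives, 328 of 383 recomputed values stayed close to the reported ones. The number of member starts that rose in H3K27Ac at 48 hpi was 4 in each alternative but the longest coding transcript, where it was 5, and the number of risen windows was 21 to 36. The H3K27Me3 change at Fcgr3 turned to -0.34 at the longest coding transcript. The cause was not tested for the following. Member starts lower in H3K27Ac were 1 with all tags kept, a second thinning, tags as deposited, 1 tag added or 1.5-fold calls. Member starts higher in H3K4Me1 (2 by total tags) were 3 under background-bin scaling or at 1.5-fold. Those lower in H3K4Me1 were 0 under background-bin scaling or in 6 kb, and 2 in 1 kb, with 1 tag added or at 1.5-fold. Those higher in H3K27Me3 were 0 under common-bin scaling, in 6 kb, at the longest coding transcript or without starts under 20 tags, and those lower were 2 under common-bin scaling, 0 in 6 kb, and 3 with 1 tag added or at 1.5-fold. In ITAM signaling 1 gene was lower under common-bin scaling, 8 were lower at 1.5-fold and 1 was higher in 1 kb. Inhibitory signaling had 0 lower under common-bin scaling and 5 at 1.5-fold. The other Fc receptors had 1 lower under common-bin scaling, 6 in 6 kb, and 7 with 1 tag added or at 1.5-fold. Lymphocyte ITAM chains had 1 lower under common-bin scaling. The pairing receptors had 2 lower with 1 tag added, at the longest coding transcript or at 1.5-fold. Fallen windows were 5 under background-bin scaling or on a grid shifted by 1.5 kb. Counts under about 20 tags, as at the 5′ end of Fcgr3, limit what can be read.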
